A study of Mus musculus with 14 samples.

Results

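The genes described here are 10 integrin subunit genes, Itgb7, Itgb1, Itga4, Itgae, Itga2, Itga2b, Itgb3, Itgb2, Itgal and Itgam, chosen by gene symbol with earlier results of these data known, of 55487 genes in the count table. All 10 were found, and 9 of them passed a filter on low counts and were tested. The tenth, Itgam, did not pass.

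The libraries were RNA sequencing of small pools of mast cells sorted from the ears of mice, with up to 100 cells in a pool. Resident mast cells came from untreated skin (5 libraries, numbered 1 to 5) and from skin treated with MC903 (5 libraries, 6 to 10). The third group (4 libraries, 11, 13, 14 and 15) also came from MC903-treated mice and was labelled bone marrow mast cells; because the protocol describes a resident gate and an integrin β7-positive gate and no other, it was taken to be the β7-positive gate. MC903 is calcipotriol, a vitamin D analogue that gives mouse skin a dermatitis resembling atopic dermatitis, and the comparison of these groups addresses how mast cells of normal and dermatitis-like skin differ. Strain, sex, age, dose, time of treatment and the animal behind each library are not given in the sources used here, so the p-values below measure the spread between libraries, which may in part be technical. The third group existed only with MC903, so its difference from untreated resident cells joins treatment and cell population, and these cannot be told apart.

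Integrins are receptors of an α and a β subunit that span the membrane and bind matrix proteins or counter-receptors on other cells. A β subunit can reach the surface only with an α partner, so the set of subunit transcripts bounds which receptors a cell can build. In mast cells the α4β7 receptor is known from the homing of progenitors to the gut and the lung through the vessel ligands Madcam1 and Vcam1, and αEβ7 binds E-cadherin on epithelium. Cytoplasmic adaptors, talin and kindlin among them, open the receptors from inside the cell (inside-out activation), and ligand binding then signals inward through focal adhesion kinases and adaptors (outside-in signalling).

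Total counts ranged from 13068078 to 31781926 per library, and 3 counts, taken as the floor below which a gene was treated as not detected, equalled 0.104 to 0.194 CPM (counts-per-million of the library). CPM values below were scaled by TMM factors. Libraries 7, 8 and 15 stood apart in the number of genes with a count, at 34560, 35246 and 32814, against 16025 to 28790 in the other libraries. The 10 mast cell markers, among them Kit, Fcer1a, Ms4a2, Cpa3 and Gata2, were detected in every group, and their summed level was 85016 to 110623 CPM in untreated resident, 105272 to 160107 CPM in MC903 resident and 102877 to 155455 CPM in MC903 bone marrow libraries. Library 15 also held 10165 CPM of 9 macrophage and dendritic cell markers, against 54.1 to 354 CPM in all other libraries, and the fold changes of the integrin genes in the bone marrow group are given with and without it.

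Of the 10 genes, 6 had a promoter in the RefSeq-derived table (GRCm38.p6): Itgb7, Itga4, Itgb1, Itgam, Itga2 and Itga2b. The 250 bases before the start used in that table are shown for Itga4 and Itga2, which moved in opposite directions between the groups, and for Itgb7, the β partner of Itga4 and the marker of the gate. That start can differ from the gene coordinates given below: the Itgb7 window reaches down to 102231936, inside the gene, whose coordinates reach 102231944. Each is 5′ to 3′ on the gene's strand, and capitals mark exact matches, on either strand, to the GATA motif core GATAA, the ETS motif core GGAAG, the RUNX motif core TGTGGT or the E-box motif CANNTG (a match on the other strand shows its reverse complement).
Itga4, chr2:79255176-79255425, plus strand: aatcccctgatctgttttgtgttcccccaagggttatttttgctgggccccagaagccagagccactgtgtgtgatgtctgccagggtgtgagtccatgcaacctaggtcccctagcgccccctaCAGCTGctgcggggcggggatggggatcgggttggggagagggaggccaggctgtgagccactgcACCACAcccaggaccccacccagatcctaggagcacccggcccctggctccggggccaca
Itgb7, chr15:102231936-102232185, minus strand: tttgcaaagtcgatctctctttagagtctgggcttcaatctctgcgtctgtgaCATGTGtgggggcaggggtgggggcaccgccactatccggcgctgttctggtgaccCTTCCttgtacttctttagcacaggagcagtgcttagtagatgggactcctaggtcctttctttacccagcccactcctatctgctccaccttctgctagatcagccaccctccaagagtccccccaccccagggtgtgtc
Itga2, chr13:114932101-114932350, minus strand: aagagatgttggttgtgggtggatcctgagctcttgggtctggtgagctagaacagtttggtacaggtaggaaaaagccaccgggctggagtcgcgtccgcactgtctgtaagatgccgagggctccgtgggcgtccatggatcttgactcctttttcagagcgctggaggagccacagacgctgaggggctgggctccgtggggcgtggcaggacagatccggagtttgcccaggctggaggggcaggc
The Itga4 window held 1 TGTGGT match and 1 CANNTG match. The Itgb7 window held 1 GGAAG match and 1 CANNTG match. None of the 4 motifs matched in the Itga2 window, and GATAA matched in none of the 6 members' windows. Over all 32851 promoter windows of this length in the table, 22.6% held the GATA core, 64.1% the ETS core, 14% the RUNX core and 66.2% the E-box. These matches describe letters only.

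In every group, the transcripts of β7, αIIb and β1 had the highest mean levels per kilobase of exon of the 10. In mean level α2 came next in both resident groups, and β2 and α4 stood above it in the bone marrow group. Compared per kilobase of exon, untreated resident cells had 103 ± 9.53 CPM per kilobase of Itgb7, 84.5 ± 21 of Itga2b and 81.6 ± 10.5 of Itgb1 (SD, n = 5), and these neighbours in the order overlapped. Itga2 followed at 15.1 ± 5.23 and Itga4 at 1.06 ± 0.298 CPM per kilobase, each without overlap with its neighbours, and the other 5 genes lay at 0.172 or below. In MC903 resident cells the order began with Itga2b at 135 ± 31.4, Itgb7 at 73.3 ± 21 and Itgb1 at 53.4 ± 17.4 CPM per kilobase (SD, n = 5), again with overlap between neighbours. Itga2 at 11.4 and Itga4 at 1.84 CPM per kilobase kept places 4 and 5. In the bone marrow group Itgb7 led at 174 ± 43.7 CPM per kilobase (SD, n = 4), without overlap with Itga2b at 91.4 ± 30.4. Itgb1 at 55.4, Itgb2 at 27.3 and Itga4 at 13.8 CPM per kilobase came next, and Itga2 took place 6 at 4.30 ± 0.914, without overlap with Itga4. Itgb1 (40.5 to 69.9 CPM per kilobase) and Itgb2 (6.61 to 79.3) overlapped. Library 15 carried the Itgb2 mean: without it Itgb2 was at 9.99 ± 3.02 and Itga4 at 16 ± 1.45 CPM per kilobase (SD, n = 3), which exchanged places 4 and 5 with no overlap between them. The order below Itga2 in this group, Itgae at 2.26, Itgal at 2.02, Itgam at 1.11 and Itgb3 at 0.483 CPM per kilobase, did not separate beyond the spread.

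**Figure D1:**
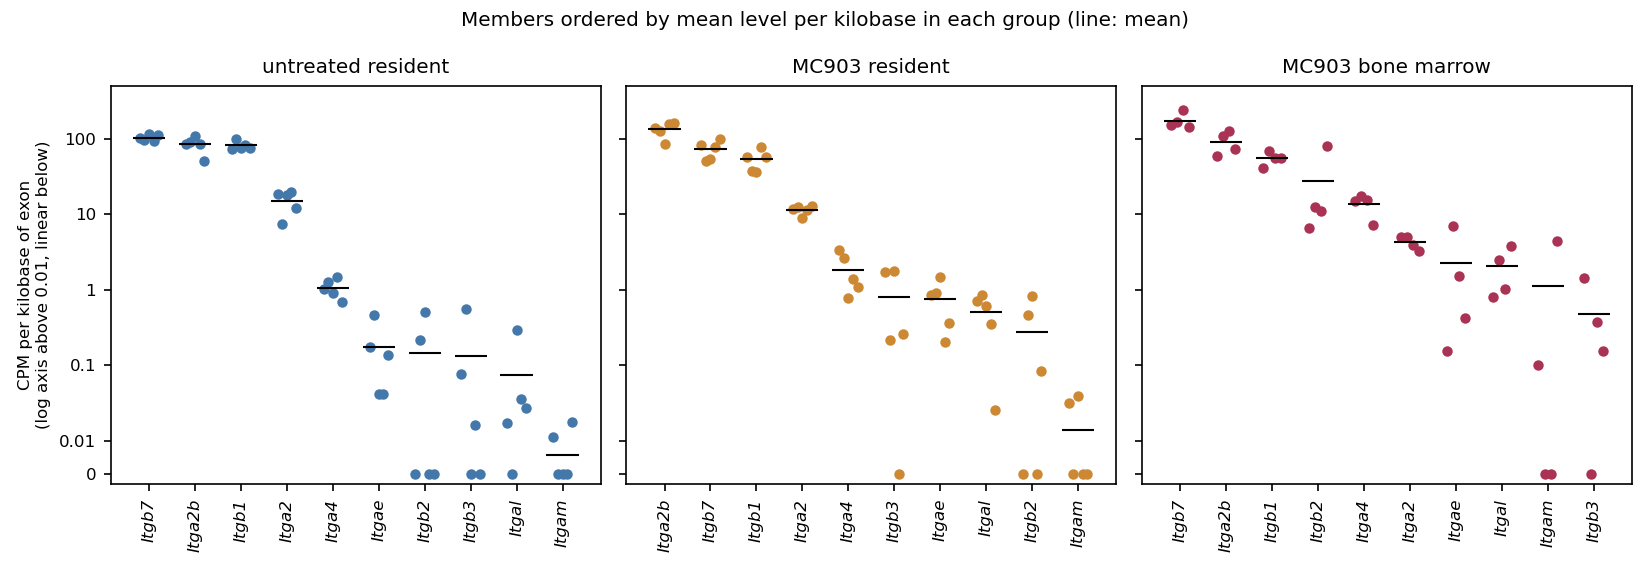
The 10 genes in each group, ordered from left to right by their mean CPM per kilobase of exon (vertical axis, logarithmic above 0.01 and linear below; points are libraries, lines are means). Itgb7, Itga2b and Itgb1 fill the first 3 places in every panel, and Itga4 and Itgb2 stand above Itga2 only in the order of the bone marrow panel.

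Differences between groups were tested for each gene with edgeR's quasi-likelihood test on the counts of all 14 libraries, with Benjamini-Hochberg adjustment over 21014 genes, and a gene was called at an adjusted p under 0.05. Between MC903 resident and untreated resident cells, 0 of the 9 tested integrin genes were called, where 2.25% of all genes were called, 0.571% higher and 1.68% lower. At an unadjusted p under 0.05 the number was 5 of 9, against 12.6% of all genes, and DESeq2 and limma's voomWithQualityWeights each called 1, against 5.6% and 6.46% of all genes by adjusted p. Between the bone marrow group and MC903 resident cells, 3 of 9 were called, Itga4 and Itgb7 higher and Itga2 lower, against 2.27% of all genes (1.32% higher, 0.952% lower). Unadjusted, 5 of 9 passed there (17.7% of all genes), and DESeq2 called 5 (8.81%) and voomWithQualityWeights 4 (9.6%). Between the bone marrow group and untreated resident cells, 5 of 9 were called, Itga4, Itgb2, Itgal and Itgb7 higher and Itga2 lower, against 6.87% of all genes (3.49% higher, 3.37% lower). With 1 library left out, this count was 2 to 6. Unadjusted, 7 of 9 passed (21.3% of all genes), and DESeq2 called 6 (16.1%) and voomWithQualityWeights 5 (10.4%). Itgb7 encodes the protein the bone marrow group was taken to be sorted for, so its call there is given as a description of the gate and not as a finding. The part of the sort in the Itgb7 transcript level was not tested.

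The median log2 fold change of the tested integrin genes was 0.79, 1.25 and 1.87 in the same order of comparisons, beside 0.24, -0.28 and -0.14 over all genes. The middle value is that of Itgb7 itself, the marker of the gate; over the other 8 tested genes the medians were 0.81, 0.82 and 2.79. The median over all genes moved to 0.40, -0.43 and -0.14 with DESeq2 size factors and to 0.45, -0.43 and -0.10 with TMM factors from genes of at least 10 CPM, so a log2 fold change near these sizes has no firm sign. Of the 473 genes called between MC903 resident and untreated resident cells, 120 were higher and 353 lower, and with the same 2 scalings 207 were higher and 294 lower, and 250 higher and 266 lower. Between the bone marrow group and MC903 resident cells, 277 were higher and 200 lower, and with these scalings 167 higher and 242 lower, and 178 higher and 254 lower. Each comparison shares libraries with the others, so they are given side by side.

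**Figure D2:**
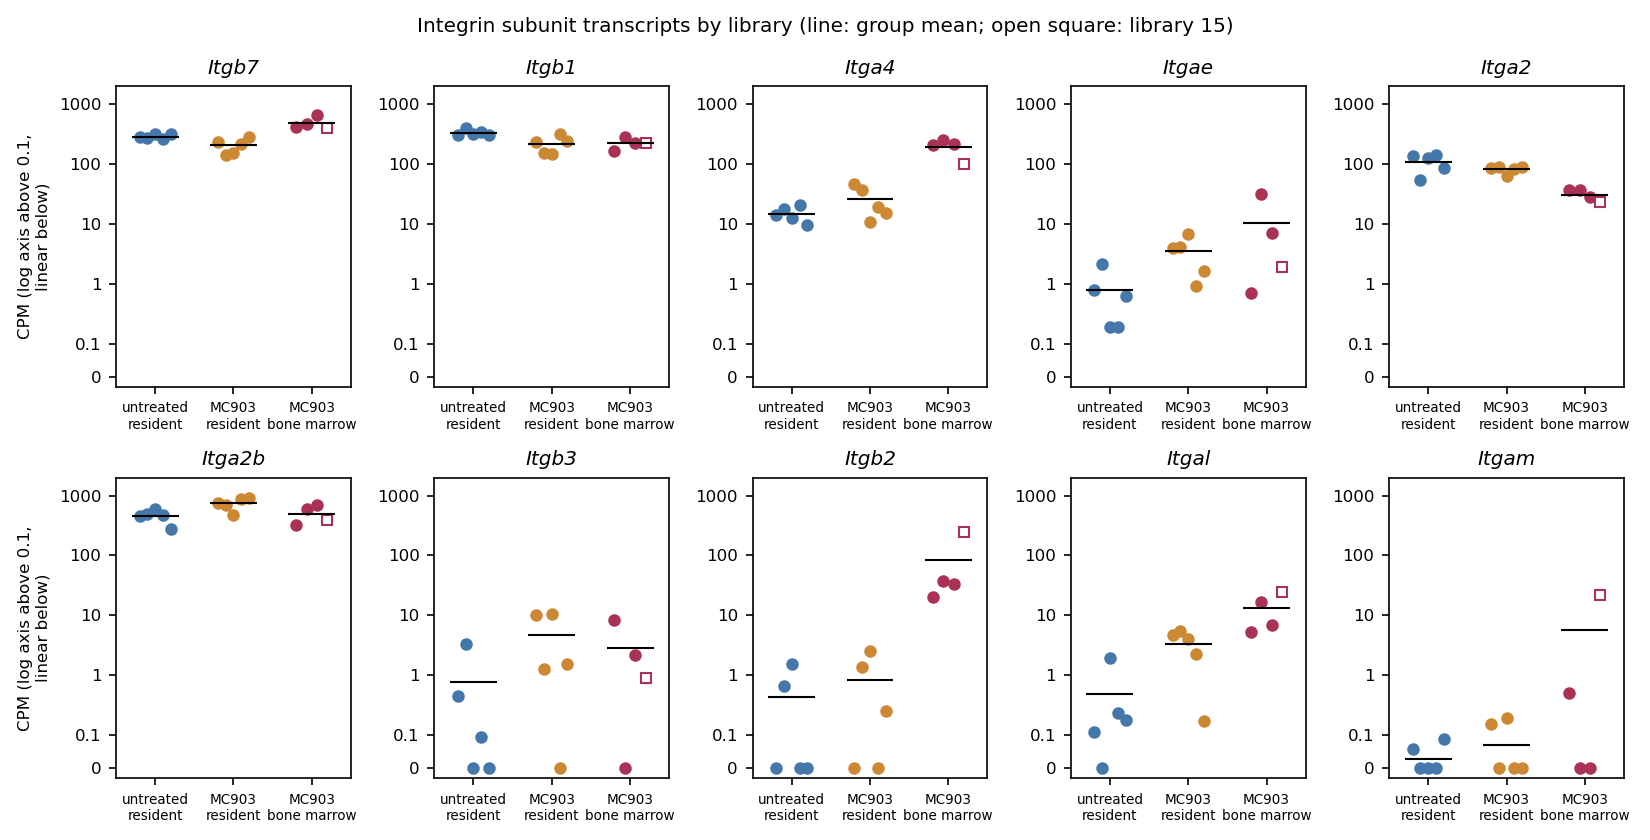
Level of each gene in every library, in CPM (vertical axis, logarithmic above 0.1 and linear below), by group, with the group mean as a line and library 15 as an open square. Itga4 in the bone marrow group (101 to 247 CPM) lies above every resident library (9.56 to 46.5 CPM), and Itga2 (22.9 to 36.1 CPM) lies below every resident library (53.1 to 141 CPM).

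Itga4 encodes the α4 subunit, which pairs with β7 or β1 and binds Vcam1, fibronectin and, as α4β7, Madcam1. The gene lies at chr2:79255426-79333123 (GRCm38, plus strand), and its counted exons span 13978 bases. Its level was 14.1, 17.5, 12.7, 20.3 and 9.56 CPM in untreated resident libraries 1 to 5, and 46.5, 36.8, 10.7, 19.4 and 15.1 CPM in MC903 resident libraries 6 to 10. In bone marrow libraries 11, 13, 14 and 15 it was 210.0, 247, 214 and 101 CPM. Every bone marrow library was thus above every resident library, and the lowest of them was library 15, while the resident groups overlapped. In log2 terms the bone marrow group was higher than MC903 resident cells by 2.91 ± 0.385 (SE, edgeR adjusted p = 0.000159) and higher than untreated resident cells by 3.70 ± 0.397 (edgeR adjusted p = 4.75e-06). Without library 15 these log2 differences were 3.13 and 3.91. Basophil markers were mixed. Mcpt8, a basophil protease, was at 980, 206, 83.6 and 46.7 CPM in bone marrow libraries 11, 13, 14 and 15. In resident libraries Mcpt8 was at 3.16 to 57.3 CPM, which overlapped with library 15. Cd200r3 averaged 547, 509 and 467 CPM in untreated resident, MC903 resident and bone marrow libraries, and Prss34 averaged 0.378, 10.2 and 5.26 CPM. The 3 basophil markers measured, Mcpt8, Prss34 and Cd200r3, summed to 482 to 738 CPM in untreated resident, 435 to 666 in MC903 resident and 271 to 1513 in bone marrow libraries, and none was at 0 in all libraries of a group. Library 15, with the lowest sum, had 101 CPM of Itga4, and the part of basophils in the Itga4 level was not tested. In such pools, a change in the share of cells that hold a transcript and a change in RNA per cell cannot be told apart. Between the resident groups the log2 difference was 0.79 ± 0.353 (edgeR adjusted p = 0.331) and not called. The Itga4 exons share 1124 bases (8.04%) with Cerkl on the opposite strand, and Cerkl itself reached at most 4.38 CPM.

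Itgb7 encodes the β7 subunit, which pairs with α4 or αE, and lies at chr15:102215995-102231944 (minus strand, 2770 exon bases). The transcript was not confined to the gated cells. It stood at 280, 266, 317, 259 and 312 CPM in untreated resident libraries and at 232, 139, 150, 218 and 277 CPM in MC903 resident libraries. The bone marrow libraries had 416, 460, 660 and 397 CPM, so they lay above every resident library. As a description of the gate, the bone marrow group was higher than MC903 resident cells by 1.25 ± 0.213 on the log2 scale (SE, edgeR adjusted p = 0.00237) and higher than untreated resident cells by 0.75 ± 0.212 (edgeR adjusted p = 0.0335). Without library 15 these were 1.34 (adjusted p = 0.000872) and 0.84 (adjusted p = 0.0228). The second of these calls ended when library 2, 4, 13 or 14 was left out (adjusted p = 0.0668, 0.0538, 0.0579 and 0.162), and with offsets for gene length (0.110) or GC content (0.238). Resident cells of MC903 skin had a log2 difference of -0.50 ± 0.201 from untreated ones (edgeR adjusted p = 0.265), which was not called. Across the alternatives other than single left-out libraries it ran from -0.65 to -0.24 and was called in none.

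Itgb1 encodes β1, the shared partner of many α subunits, α4 and α2 among them, and lies at chr8:128685654-128733200 (plus strand, 4081 exon bases). Untreated resident libraries had 302, 405, 312, 339 and 306 CPM, MC903 resident libraries 231, 153, 148, 320 and 237 CPM, and bone marrow libraries 165, 285, 227 and 227 CPM. The bone marrow values fell inside the range of MC903 resident cells and below the range of untreated resident cells. None of the 3 comparisons was called by edgeR: the log2 difference was -0.61 ± 0.212 (SE, adjusted p = 0.162) between the resident groups, 0.05 ± 0.224 (adjusted p = 0.931) between the bone marrow group and MC903 resident cells, and -0.56 ± 0.226 (adjusted p = 0.151) between the bone marrow group and untreated resident cells. Without library 15 the latter pair was 0.06 and -0.56. The middle value took either sign under other scalings, and limma's voomWithQualityWeights called the first (log2 -0.74, adjusted p = 0.0222). Across the alternatives other than single left-out libraries, the first ran from -0.74 to -0.34 and was otherwise not called.

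Since β7 and β1 both pair with α4, their transcripts were compared within each library, per kilobase. Itgb7 was 1.36, 0.966, 1.5, 1.12 and 1.5 times Itgb1 in untreated resident libraries 1 to 5 and 1.48, 1.33, 1.49, 1 and 1.72 times in MC903 resident libraries 6 to 10. In bone marrow libraries 11, 13, 14 and 15 the ratio was 3.70, 2.38, 4.29 and 2.57. All bone marrow ratios lay above all resident ratios. On the log2 scale the mean ratio differed by 1.18 ± 0.243 (SE) from MC903 resident cells and by 1.30 ± 0.240 from untreated resident cells, 1.28 and 1.40 without library 15, each with p = 0.00794 over all libraries in an exact two-sided permutation test over libraries, the smallest p this design allows, and adjusted p = 0.0476 over 12 ratio tests. The resident groups differed by 0.12 ± 0.181 (exact permutation p = 0.516, adjusted p = 0.686). The ratio contains the gate's own marker and is given as a property of the gated cells; with any 1 library of either group left out, the log2 difference was 1.03 to 1.31 from MC903 resident and 1.15 to 1.44 from untreated resident cells, and the groups still did not overlap. The adjusted p was then 0.0714 to 0.171, each from the smallest exact permutation p that the smaller design allows, so the lost call says nothing about the size of the difference.

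Itgae encodes αE (CD103), the β7 partner that binds E-cadherin, and lies at chr11:73090583-73147446 (plus strand, 4581 exon bases). It was low and variable, at 0.794, 2.13, 0.188, 0.190 and 0.626 CPM in untreated resident libraries, 3.91, 4.12, 6.71, 0.925 and 1.65 CPM in MC903 resident libraries, and 0.712, 31.9, 6.92 and 1.93 CPM in the bone marrow libraries. The groups overlapped, and library 13 alone stood above 7 CPM. The bone marrow group differed from untreated resident cells by 3.71 ± 1.18 in log2 terms (SE, edgeR adjusted p = 0.0644), which was not called, although it was without library 2 (adjusted p = 0.0478), 11 (0.0418) or 15 (0.0405), and with DESeq2 (0.00328). Without library 13 the difference was 2.01 (edgeR adjusted p = 0.461). The other log2 differences were 2.13 ± 1.08 between the resident groups (adjusted p = 0.443), 2.97 without library 2, and 1.58 ± 1.10 between the bone marrow group and MC903 resident cells (adjusted p = 0.478), which became -0.16 without library 13. Without library 15 the bone marrow group's differences were 4.06 from untreated and 1.93 from MC903 resident cells. The summed level of 8 T cell markers, T cells being another source of Itgae, was 0.488 to 4.31 CPM in untreated resident, 2.32 to 13.2 in MC903 resident and 0.922 to 33.0 in bone marrow libraries. Cd3e and Trdc were at 0 in all untreated resident libraries, and 8 of the 8 markers were detected in a library of each MC903 group. Library 13, highest in Itgae, had 3.97 CPM of T cell markers, and library 14, highest in those, had 6.92 CPM of Itgae. The part of other cells in the Itgae level was not tested. Per kilobase, Itgae was below Itga4 in 13 of 14 libraries, and the log2 ratio averaged -3.10, -1.37 and -3.83 in the untreated resident, MC903 resident and bone marrow groups, with no difference past the threshold (exact permutation test, adjusted p = 0.286, 0.286 and 0.686).

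**Figure D3:**
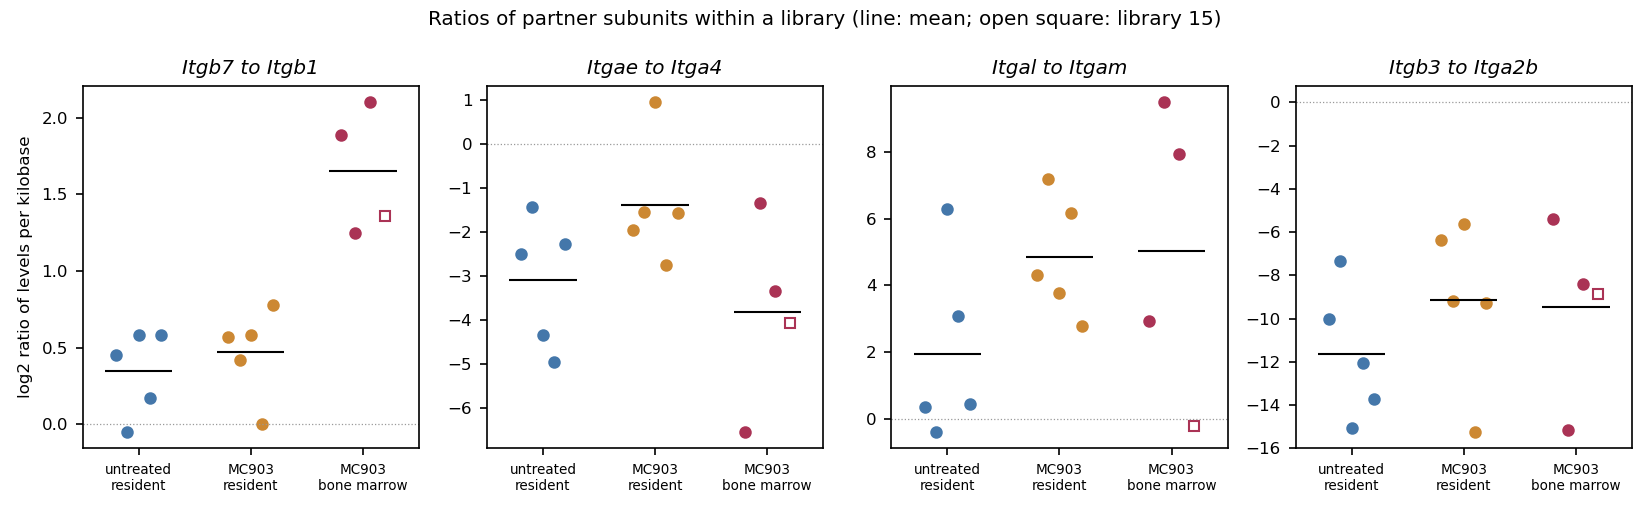
Ratio of partner subunits within each library, as the log2 of the ratio of levels per kilobase (vertical axis, with a separate scale for each pair), by group; lines are means and the open square is library 15. The Itgb7 to Itgb1 ratios of the bone marrow group (log2 1.25 to 2.10) lie above all resident ratios (log2 -0.05 to 0.78), and the groups overlap in the other pairs.

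Itga2 encodes α2, which with β1 forms a collagen receptor found on platelets, mast cells and other cells, and lies at chr13:114833081-114932100 (minus strand, 7133 exon bases). Its level was 133, 53.1, 127, 141 and 85.3 CPM in untreated resident libraries and 84.2, 89.1, 63.4, 81.1 and 90.3 CPM in MC903 resident libraries. Bone marrow libraries had 36.1, 36.1, 27.7 and 22.9 CPM. Every bone marrow library was below every resident library, and the resident groups overlapped. The bone marrow group was lower than MC903 resident cells, with a log2 difference of -1.41 ± 0.277 (SE, edgeR adjusted p = 0.00673), and lower than untreated resident cells, with -1.81 ± 0.281 (edgeR adjusted p = 0.000258). Without library 15 these were -1.28 (adjusted p = 0.0167) and -1.69 (adjusted p = 0.000786). The log2 difference between the resident groups was -0.40 ± 0.252 (edgeR adjusted p = 0.596) and not called. Itga4 and Itga2 thus differed in opposite directions between the same groups of libraries, and across the 14 libraries their log2 levels had a Pearson r of -0.783, a description of libraries that share these groups.

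Itga2b and Itgb3 encode αIIb and β3, the subunits of the platelet fibrinogen receptor; β3 also pairs with αV. Itga2b lies at chr11:102453297-102470122 (minus strand, 5454 exon bases) and Itgb3 at chr11:104608000-104670476 (plus strand, 5901 exon bases). Itga2b was abundant everywhere, at 463, 497, 596, 470 and 279 CPM in untreated resident, 763, 698, 466, 868 and 893 CPM in MC903 resident and 326, 588, 684 and 396 CPM in bone marrow libraries. Of the 5 MC903 resident libraries, 4 lay above every other library and library 8 lay among them. Its log2 difference between the resident groups was 0.68 ± 0.230 (SE, edgeR adjusted p = 0.151), not called, but past the threshold under 5 of the alternatives: DESeq2 size factors (adjusted p = 0.0418), TMM factors from genes of at least 10 CPM (0.0291), no filter (0.0249), a filter at 10 CPM (0.0161) and DESeq2 (0.0148). The bone marrow group differed from MC903 resident cells by -0.56 ± 0.246 (edgeR adjusted p = 0.234) and from untreated resident cells by 0.11 ± 0.243 (edgeR adjusted p = 0.857), and without library 15 by -0.46 and 0.21.

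Itgb3 was near the floor in many libraries, at 0.454, 3.32, 0, 0.0950 and 0 CPM in untreated resident, 10.1, 1.28, 10.4, 0 and 1.52 CPM in MC903 resident, and 8.30, 0, 2.18 and 0.913 CPM in bone marrow libraries. The groups overlapped, and edgeR called no difference (log2 2.57 ± 1.76, -0.71 ± 1.79 and 1.87 ± 1.78, adjusted p = 0.643, 0.880 and 0.615 for MC903 resident against untreated resident, bone marrow against MC903 resident and bone marrow against untreated resident), and without library 15 the last pair was -0.40 and 2.17. Single libraries moved these values: without library 2 the differences from untreated resident cells were 5.08 for MC903 resident and 4.36 for bone marrow cells, and without library 11 the bone marrow differences were -2.21 from MC903 resident and 0.41 from untreated resident cells. Per kilobase, the median ratio of Itgb3 to Itga2b was 0.000233 in untreated resident, 0.00173 in MC903 resident and 0.00258 in bone marrow libraries, with no difference past the threshold (exact permutation test, adjusted p = 0.463, 0.984 and 0.560 in the same order). Itga2b is also a marker of platelets and megakaryocytes. Of 7 other markers of those cells, Gp1ba, a subunit of the platelet receptor for von Willebrand factor, averaged 92.5 ± 16.4 CPM (SD, n = 5) in untreated resident, 154 ± 44.4 CPM (n = 5) in MC903 resident and 73.5 ± 19.2 CPM (n = 4) in bone marrow libraries, beside Itga2b means of 461, 737 and 499 CPM. Both genes had their highest mean in the MC903 resident group. Ppbp, Gp1bb, Gp5, Gp9 and Gp6 stayed at or below 6.88 CPM in every library. Pf4 was at or below 5.47 CPM outside library 15, where it reached 932 CPM beside 396 CPM of Itga2b. The part of such cells in the Itga2b level was not tested.

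The leukocyte integrins share β2. Itgb2 (chr10:77530252-77565708, plus strand, 3052 exon bases) encodes β2, Itgal (chr7:127296260-127335138, plus strand, 6569 exon bases) its partner αL, which binds Icam1 and Icam2 on other cells, and Itgam (chr7:128062640-128118491, plus strand, 5024 exon bases) its partner αM (CD11b) of myeloid cells, which binds complement fragments and fibrinogen. Itgb2 was at 0, 0.656, 1.54, 0 and 0 CPM in untreated resident libraries and at 0, 1.39, 2.52, 0 and 0.253 CPM in MC903 resident libraries. In the bone marrow libraries it was at 20.2, 38.0, 33.3 and 242 CPM, all above every resident library, with library 15 far above the other 3. The bone marrow group was higher than untreated resident cells by 7.50 ± 1.78 on the log2 scale (SE, edgeR adjusted p = 0.0244), by 6.06 ± 1.58 without library 15 (adjusted p = 0.0230) and by 8.84 without library 3. That call ended without library 1, 2, 4 or 13 (adjusted p = 0.0509, 0.0575, 0.0514 and 0.0505) and without the filter on low counts (0.0755). Against MC903 resident cells the log2 difference was 6.67 ± 1.72 (edgeR adjusted p = 0.0744), not called, although the groups did not overlap. Without library 15 it was 5.21 ± 1.53 (adjusted p = 0.0697) and without library 8 it was 7.65, also not called. With all libraries, limma's voomWithQualityWeights (0.00758), DESeq2 (0.0178) and a filter at 10 CPM (0.0445) called it. Between the resident groups the log2 difference was 0.83 ± 1.45 (edgeR adjusted p = 0.905).

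Itgal was at 0.113, 0, 1.92, 0.237 and 0.179 CPM in untreated resident, 4.69, 5.51, 4, 2.29 and 0.169 CPM in MC903 resident and 5.20, 16.4, 6.79 and 24.9 CPM in bone marrow libraries. Bone marrow libraries were above all untreated ones, and MC903 resident libraries overlapped with both groups. The bone marrow group was higher than untreated resident cells by 4.74 ± 1.28 on the log2 scale (SE, edgeR adjusted p = 0.0260). This call ended without library 1, 4, 5, 13 or 15 (adjusted p = 0.0619, 0.0645, 0.0539, 0.0524 and 0.0713) and without libraries 7, 8 and 15 (0.0964), with a log2 difference of 4.23 without library 15. Without library 3, whose Itgal level was the highest of the untreated ones, the difference was 6.60. The other log2 differences were 2.74 ± 1.15 between the resident groups (edgeR adjusted p = 0.287), 4.63 without library 3 and not called, and 2 ± 1.15 between the bone marrow group and MC903 resident cells (edgeR adjusted p = 0.378), the latter 1.51 without library 15. Of the bone marrow libraries, 15 was highest in Itgal and in macrophage and dendritic cell markers, which summed to 172, 80.9, 354 and 10165 CPM in libraries 11, 13, 14 and 15. The T cell markers, T cells being another source of Itgal, summed there to 0.922, 3.97, 33.0 and 7.76 CPM, and the part of either kind of cell in the Itgal level was not tested.

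Itgam was at or under the floor of 3 counts in all 10 resident libraries and at 0.503, 0, 0 and 21.9 CPM in bone marrow libraries 11, 13, 14 and 15, so 431 of its counts came from library 15. It was not tested, no fold is given, and 3450 bases of its exons (68.67%) are shared with Gm49368 on the same strand, so its level depends on how shared reads were counted. The log2 ratio of Itgal to Itgam, per kilobase, averaged 1.96, 4.85 and 5.04 in the untreated resident, MC903 resident and bone marrow groups, with a prior count of 0.5 standing in for the zeros and no difference past the threshold (exact permutation test, adjusted p = 0.286 for the resident groups, 0.984 for bone marrow against MC903 resident and 0.463 against untreated resident). The difference between the bone marrow group and MC903 resident cells was 0.19, and 1.94 without library 15.

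Markers of myeloid cells moved with Itgb2, Itgal and Itgam in library 15. Its macrophage and dendritic cell markers summed to 10165 CPM, with Lyz2 at 4838, C1qb at 2262, Csf1r at 1105, Cd68 at 826 and Adgre1 at 342 CPM, while 8 of the 9 markers were detected in that group as a whole. In bone marrow libraries 11, 13 and 14 the sum was 80.9 to 354 CPM beside 20.2 to 38.0 CPM of Itgb2. Cd68 was at 163, 74.2 and 69.6 CPM in those libraries, above the 13 to 68.2 CPM of all resident libraries. Lyz2 was at 5.95, 0 and 257 CPM there, against 21.7 to 131 CPM in resident libraries. C1qb was at 3.94, 2.71 and 0 CPM, within the resident range of 0 to 7.69 CPM. C1qa was at 3.34 CPM in library 13, against at most 0.156 CPM in resident libraries, and Csf1r and Adgre1 were at 0 in libraries 11 and 13. The untreated resident libraries had a sum of 57.8 to 140 CPM, with C1qa and Cd207 at 0 in all of them, and the MC903 resident libraries 54.1 to 175 CPM, beside Itgb2 at or below 2.52 CPM. The part of these cells in the Itgb2 level of the bone marrow libraries was not tested.

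**Figure D4:**
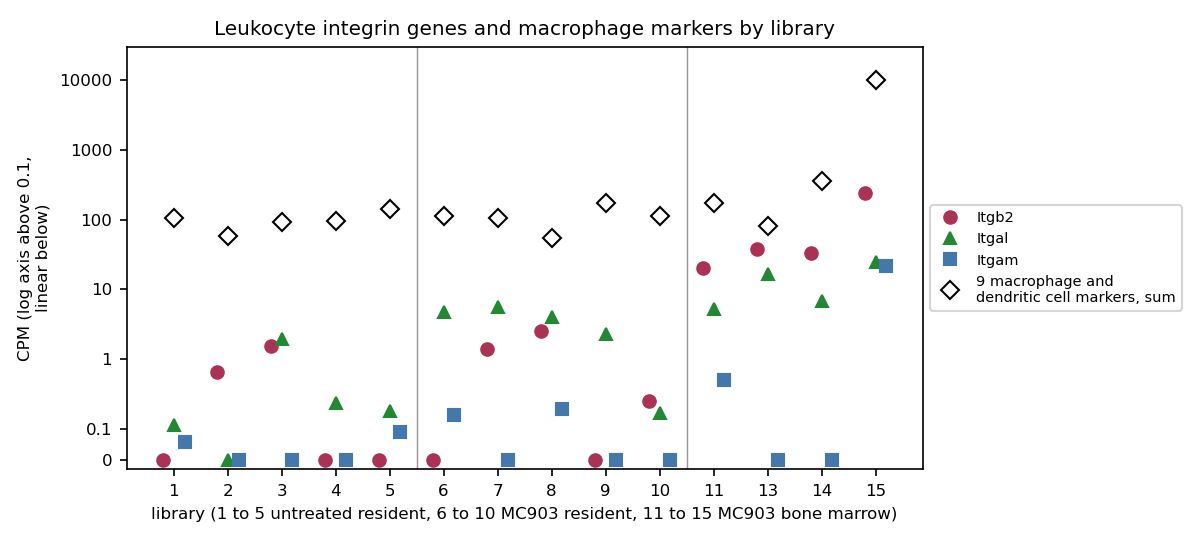
Itgb2, Itgal, Itgam and the summed level of 9 macrophage and dendritic cell markers in each library (horizontal axis), in CPM (vertical axis, logarithmic above 0.1 and linear below; points of a library are set side by side). Library 15 has 10165 CPM of the markers and 242 CPM of Itgb2, and libraries 11, 13 and 14 have 20.2 to 38.0 CPM of Itgb2 at 80.9 to 354 CPM of the markers.

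**Figure D5:**
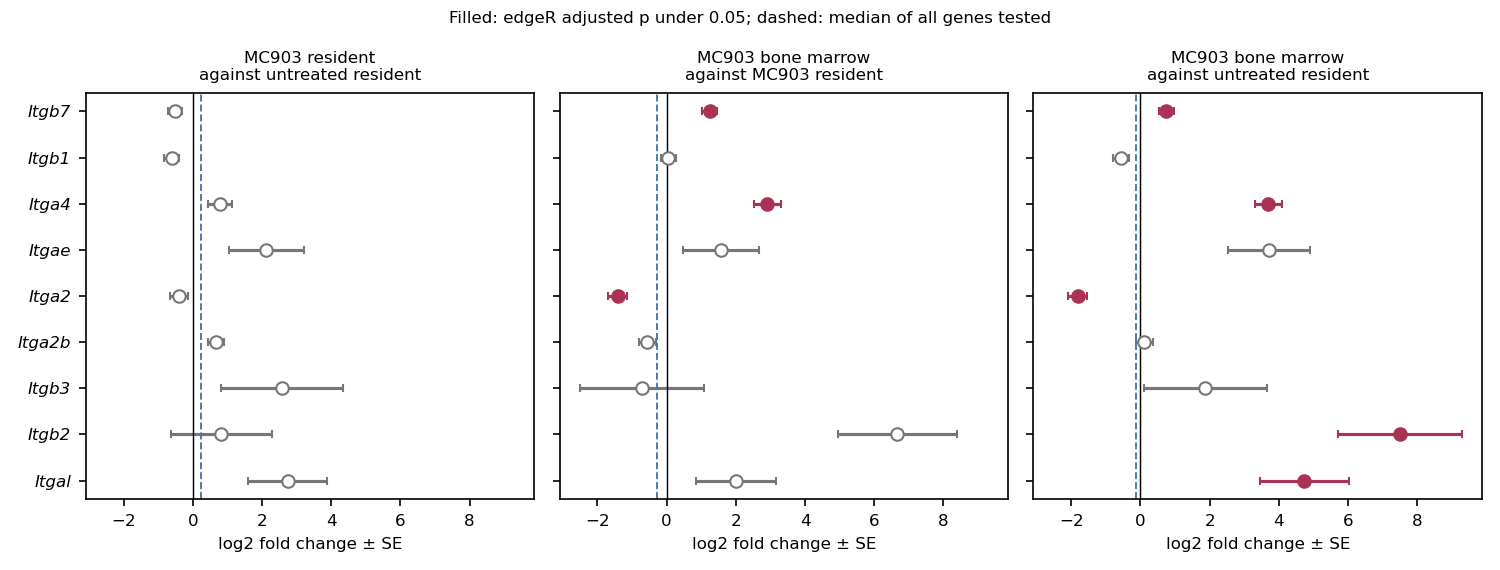
Log2 fold change with its SE (horizontal axis) for the 9 tested integrin genes in the 3 comparisons; filled points had an edgeR adjusted p under 0.05 and dashed lines are the medians over all genes. No point is filled for MC903 resident against untreated resident cells, while Itga4 (2.91 and 3.70) and Itga2 (-1.41 and -1.81) are filled in both comparisons of the bone marrow group.

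Of 16 further subunit genes, all tested, 0 were called between the resident groups, 0 between the bone marrow group and MC903 resident cells, and 1 between the bone marrow group and untreated resident cells, near the 2.25%, 2.27% and 6.87% of all genes called. The list's median log2 difference was 1.53, -0.51 and 0.36 in these comparisons. The called gene was Itga5, the α5 subunit of the fibronectin receptor, which was at 20 to 60.5 CPM in untreated resident libraries and at 101, 108, 73.4 and 265 CPM in the bone marrow libraries. Its log2 difference was 1.55 ± 0.355 (SE, edgeR adjusted p = 0.00863), and it was 1.01 without library 15 (adjusted p = 0.0624), which ended the call.

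Among 18 genes of inside-out activation, all tested, 0 rose and 2 fell between untreated and MC903 resident cells, where 0.571% of all genes were called higher and 1.68% lower. Fyb, an adaptor that links receptor signals to integrin activation, was at 262 to 318 CPM in untreated and 128 to 171 CPM in MC903 resident libraries, without overlap (log2 -0.97 ± 0.157, SE, edgeR adjusted p = 0.00104). Rap1b, the small GTPase that recruits talin, had a log2 difference of -0.95 ± 0.224 (edgeR adjusted p = 0.0231). Between the bone marrow group and MC903 resident cells 2 rose and 1 fell, against 1.32% of all genes called higher and 0.952% lower. Flna, filamin A, which competes with talin for β tails, was at 146 to 242 CPM against 58.5 to 86.1 CPM (log2 1.40 ± 0.244, edgeR adjusted p = 0.00295). Rassf5, a Rap1 effector known from αL integrin activation in lymphocytes, rose by 1.06 ± 0.272 on the log2 scale (edgeR adjusted p = 0.0420). Fermt2, kindlin-2, was at 21.8 to 46.9 CPM in MC903 resident and 2.14, 0.174, 0.897 and 8.57 CPM in bone marrow libraries (log2 -3.53 ± 0.794, edgeR adjusted p = 0.0195), while Fermt3, the kindlin of blood cells, stood at 402 to 703 CPM in bone marrow and 266 to 462 CPM in MC903 resident libraries and was not called. Against untreated resident cells, Flna was higher (log2 1.86 ± 0.246, edgeR adjusted p = 4.88e-05), and Fyb (-1.07 ± 0.169, adjusted p = 0.000298) and Fermt2 (-3.05 ± 0.776, adjusted p = 0.0181) were lower, so 1 rose and 2 fell, against 3.49% and 3.37% of all genes. Without libraries 7, 8 and 15 together, the Flna call against MC903 resident cells ended (edgeR adjusted p = 0.0743). The Rap1b call ended without library 1, 4, 5, 6, 7, 8 or 9 (edgeR adjusted p up to 0.09), without libraries 7, 8 and 15 (0.108), with TMM factors from genes of at least 10 CPM (0.0593) and with the GC offset (0.0726), and that of Rassf5 without library 6, 8, 9, 10, 11 or 13 (up to 0.202) and under other scalings. The Fermt2 calls ended without library 11 or 14, against MC903 resident cells also without library 8 (up to 0.0843) and against untreated resident cells also without library 1 (up to 0.0786), and both ended in fits of only the groups compared (0.0578 and 0.09). Without library 15 the Fermt2 differences were larger, -4.98 from MC903 resident (edgeR adjusted p = 0.000437) and -4.50 from untreated resident cells (0.000372). The list's median log2 difference was 0.02, 0.19 and 0.35 in the 3 comparisons.

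Of 25 genes of outside-in signalling and anchorage, 24 were tested, and 0 were called between the resident groups, where 2.25% of all genes were. Between the bone marrow group and MC903 resident cells, where 1.32% of all genes were called higher, 2 rose: Parvg, γ-parvin, the parvin of blood cells that binds integrin-linked kinase (log2 1.88 ± 0.356, SE, edgeR adjusted p = 0.00495), and Zyx, zyxin of focal adhesions (log2 0.88 ± 0.219, adjusted p = 0.0365). The Zyx call ended without any 1 of libraries 6 to 10, 13 or 14 (adjusted p up to 0.122) and under other scalings. Against untreated resident cells the same pair was called higher (Parvg 1.63 ± 0.354, Zyx 0.99 ± 0.219) and 3 genes lower, against 3.49% and 3.37% of all genes. The lower genes were Bcar1, the docking protein p130Cas (log2 -3.65 ± 0.748, edgeR adjusted p = 0.00353), Fyn, a Src-family kinase (-1.22 ± 0.260, adjusted p = 0.00472), and Ptk2b, a kinase related to focal adhesion kinase (-1.09 ± 0.233, adjusted p = 0.00482). Bcar1 was at 24.0 to 57.1 CPM in untreated resident libraries and at 3.6, 7.65, 0.598 and 0.254 CPM in bone marrow libraries, and its log2 difference was -4.69 without library 13. The list's median log2 difference was -0.13, -0.25 and -0.32.

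Of 18 ligand genes, 15 were tested, and 0 were called in either comparison with MC903 resident cells, near the 2.25% and 2.27% of all genes called. Against untreated resident cells 2 were called, both higher, where 3.49% of all genes were called higher. The bone marrow group was higher there in Icam2, a ligand of αLβ2 (21.1 to 50.9 CPM against 0.340 to 5.90 CPM, log2 3.10 ± 0.882, SE, edgeR adjusted p = 0.0355), and in Thbs1, thrombospondin-1 (log2 9.85 ± 2.38, edgeR adjusted p = 0.0282). Thbs1 rested on libraries 14 and 15, with 212 CPM in library 15, and was at 0 in libraries 11 and 13. Both calls ended without any 1 of libraries 1 to 5 or 14, and that of Icam2 also without library 11 (edgeR adjusted p up to 0.0784 for Icam2 and 0.0695 for Thbs1). The Icam2 call also ended with offsets for gene length (edgeR adjusted p = 0.0512) or GC content (0.0564), and the Thbs1 call without the filter on low counts (0.0639). By limma's voomWithQualityWeights, Thbs1 was not called and had a log2 difference of 3.27 (adjusted p = 0.429), so the size of the Thbs1 difference depends on the method. The list's median log2 difference was 1.42, -0.72 and 0.23.

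By Pearson correlation of log2 CPM over the 14 libraries, among 7960 genes averaging 10 CPM or more, 3 genes were named as most like each tested integrin gene. Itga4 was most like Edem1 (r = 0.955), Atp6v0a1 (0.938) and Coro1a (0.936). Itgb7 was most like Capza1 (0.956), Btg1 (0.941) and Ctsg (0.916), the last of which averaged 470 CPM in untreated resident, 256 in MC903 resident and 2245 in bone marrow libraries. Itga2 was most like Zbtb10 (0.921), Aard (0.915) and Enc1 (0.915); Aard averaged 61.3 and 44.7 CPM in the resident groups and 0.0985 CPM in the bone marrow group. Itgb2 was most like Cd83 (0.922), Igfbp4 (0.903) and Rpl14-ps1 (0.899), and Cd83 averaged 0.379, 0.153 and 145 CPM in the 3 groups. Itgb1 was most like Sh3kbp1 (0.908), Rab5a (0.889) and Copb1 (0.887), and Itga2b most like Mvb12b (0.847), Chst15 (0.845) and Rab44 (0.835). For the low genes the nearest were Rasa4 (0.926), Rab38 (0.885) and Zfp710 (0.881) for Itgal, Tdp1 (0.893), Arhgef18 (0.751) and Abhd11 (0.742) for Itgb3, and Gpr174 (0.782), Slc35c1 (0.775) and Creld1 (0.775) for Itgae. These r are descriptions, since all points share the same libraries and group differences.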

How the data were processed

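The values deposited by the authors were raw read counts, whole numbers for each gene, beside the length of its exons. Per the submitters' processing notes the tools were STAR and featureCounts and the build mm10; their versions and the strand setting are not given in the sources used here. Per the labels' protocols, complementary DNA was made with SMART-Seq HT from up to 100 cells and tagmented with Nextera XT; such reads carry no molecular identifiers, so floors cover counting error only. Of 55487 gene identifiers, 55394 matched a symbol in GENCODE M21 on GRCm38, and 55094 had the same version and coordinates.

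Genes were filtered with filterByExpr (minimum count 10, minimum total 15), which left 21014. edgeR 4.0.16 in R 4.3.3 fitted 1 model with 3 groups to the 14 libraries (TMM, robust quasi-likelihood, Benjamini-Hochberg), and alternatives used DESeq2 1.42.0 and limma 3.58.1. Ratios used a prior count of 0.5. The scripts were tested on simulated counts. No pair of libraries within a group looked like a repeat (lowest chi-square per degree of freedom 45.7), and pairs across groups were not checked.

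The integrin genes were set by name, and those and the lists of related genes and markers were chosen with earlier results of these data known. Named from the related lists were at most 8 called genes per list and comparison, by adjusted p; 3 genes were named by likeness per tested gene. Values named for single genes outside these rules (Fermt3, and markers beside a result) were chosen after they were seen.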

Additional observations from a re-analysis of the deposited data

Results flagged for a closer look

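In 42 groups of values checked for a library far from the others of its group, 4 stood out. The limit used flags about 1 in 20 groups of normally distributed values. Its rate for low levels with zeros was not measured. Itgal in untreated resident library 3 was at 1.92 CPM, with the other 4 libraries at 0 to 0.237. Itgb3 in untreated resident library 2 was at 3.32 CPM, with the others at 0 to 0.454. Itgam in bone marrow library 15 was at 21.9 CPM, with the others at 0 to 0.503, and Itgb2 in the same library was at 242 CPM, with the others at 20.2 to 38.0. Library 15 was also the library with 10165 CPM of macrophage and dendritic cell markers, whose part in these levels was not tested.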

How the results depend on the processing

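The calls of Itga4 and Itga2 in both comparisons of the bone marrow group, and of Itgb7 against MC903 resident cells, held under every alternative run. Between the resident groups the count of called integrin genes was 0 by edgeR, with a range of 0 to 0 when each library was left out, and 1 with DESeq2 size factors, TMM factors from genes of at least 10 CPM, no filter, a filter at 10 CPM, the DESeq2 Wald test (Itga2b in each) or limma's voomWithQualityWeights (Itgb1). Between the bone marrow group and MC903 resident cells it was 3, 3 to 3 with a library left out, and 5 with the DESeq2 Wald test, which added Itgb2 and Itga2b. Against untreated resident cells it was 5, and 2 to 6 with a library left out: 3 without library 1 and 2 without library 4 or 13. Ratio tests past the threshold were 2, and 0 to 0 with a library left out and 0 without libraries 7, 8 and 15, designs whose smallest exact p is larger, so that these losses say nothing about the size of the ratios.

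Signs turned for differences that were not called; ranges are over fits that each leave out 1 library. For Itgb2 between the resident groups the log2 difference was -0.17 without library 8 (range -0.17 to 2.21) and -2.27 without libraries 7, 8 and 15. For Itgae against MC903 resident cells it was -0.16 without library 13 (range -0.16 to 1.94). For Itgb1 against MC903 resident cells it was -0.07 with DESeq2 size factors, the other TMM factors or the DESeq2 Wald test, -0.08 with the filter at 10 CPM, -0.04 with only the groups compared, and -0.00058, -0.09, -0.07 and -0.10 without library 6, 7, 8 or 13 (range -0.10 to 0.15), and -0.24 without libraries 7, 8 and 15. For Itga2b against untreated resident cells it was -0.15 with a GC offset, -0.02 without library 5 and -0.08 without library 14 (range -0.08 to 0.26). The ratio difference against MC903 resident cells became, for Itgb3 to Itga2b, 0.38, 0.57 and 1.59 without library 6, 8 or 13 (range -1.84 to 1.59) and 0.64 without libraries 7, 8 and 15, and, for Itgal to Itgam, -0.08, -0.33, -1.29 and -0.77 without library 8, 10, 13 or 14 (range -1.29 to 1.94). For Itgae to Itga4 against untreated resident cells it became 0.18 without library 11 (range -1.56 to 0.18). The cause of these changes was not tested.

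No paired analysis was possible because the libraries carry a single running number and the groups share none. The GC offset used transcripts in place of a genome and was chosen after seeing the data. At this depth a gene at or under the floor of 3 counts, such as Itgam in resident cells, was not detectable. Itgb3 was at 0 in library 13, the deepest, and at 193 and 161 counts in the shallower libraries 6 and 8.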
